A study of Macaca mulatta with 21 samples.

Results

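CRES-1 is an embryonic stem cell line of the rhesus macaque that was derived from a blastocyst cloned by somatic cell nuclear transfer, and ORMES23 is one derived from an embryo made by in vitro fertilization. The comparison took 3 arrays of CRES-1 (A, B and C) and 3 arrays of ORMES23 (A, B and C), which is 6 of the 21 arrays in the series. Its members were the probe sets with 1 gene symbol and a log2 intensity of 5 or more on at least 3 of these 6 arrays, which left 16963 of the 52865 probe sets, covering 10489 genes. Both lines are labelled male. Both were grown on mitotically inactivated mouse embryonic fibroblasts with 15% fetal bovine serum, and colonies judged undifferentiated were picked by hand for RNA. The other arrays came from the cloned line CRES-3, the induced lines RiPS1, RiPS2 and RiPS3, and skin fibroblasts. Each line is a single derivation, so every difference between CRES-1 and ORMES23 concerns this pair of lines. Route of derivation, nuclear genotype, egg donor, passage history and culture cannot be told apart, since each line has its own.

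In nuclear transfer the nucleus of a differentiated cell is placed in an egg whose own chromosomes were removed, and factors of the egg cytoplasm reset it to an embryonic state. The cloned embryo carries the nuclear genome of the donor cell, the mitochondrial DNA of the egg, and whatever marks of the donor cell escaped resetting. Imprinted genes, which are expressed from the copy of a single parent, and genes of the donor cell type are the places where incomplete resetting is usually looked for. A line from a fertilized embryo has passed through no differentiated nucleus.

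Both lines carried the expression of pluripotent cells. POU5F1, which encodes the factor OCT4, averaged log2 12.42 ± 0.204 in CRES-1 and 11.94 ± 0.456 in ORMES23 (SD, n = 3 each), against 4.14 in the fibroblasts. SOX2, its partner on DNA, averaged 12.01 in CRES-1, 12.06 in ORMES23 and 4.48 in the fibroblasts. DNMT3B, the methyltransferase that sets new DNA methylation, averaged 12.01 in CRES-1, 12.26 in ORMES23 and 4.72 in the fibroblasts. ZFP42 and CDH1, which such cells usually express, were on the array but did not reach the level rule. The NANOG probe set did not separate the lines from fibroblasts, with 8.72 in CRES-1, 9.22 in ORMES23 and 9.96 in the fibroblasts. Of the markers of sex, the sole Y-linked member was SRY, at 5.28 in CRES-1 and 5.48 in ORMES23, both close to the log2 5 limit.

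The 6 arrays fell into no clean pair of blocks. Correlations over members were 0.9692 to 0.9924 within CRES-1, 0.9616 to 0.995 within ORMES23 and 0.9428 to 0.9806 between the lines, so that the ranges overlapped. An array stood apart in each line: CRES-1 C differed by more than 2-fold from the mean of its mates in 654 member probe sets and ORMES23 A in 834, against 67 to 209 for the other 4 arrays. On ORMES23 A the actin control probes differed between the 3′ and 5′ ends by log2 1.64, the second highest of the 21 arrays. Such a difference can be a sign of shorter RNA. It was 1.07 to 1.14 on the CRES-1 arrays and 0.786 to 0.85 on the other ORMES23 arrays. For the GAPDH control probes it was 0.707 on ORMES23 A and 0.696 to 0.812 on the CRES-1 arrays. The other ORMES23 arrays gave 0.629 and 0.762, so this second control did not set ORMES23 A apart.

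Endoderm genes marked both of these arrays. The 21 measured members of the endoderm list averaged 8.62, 8.44 and 7.53 on CRES-1 A, B and C, and 9.44, 8.16 and 7.85 on ORMES23 A, B and C. SOX17, a factor of definitive endoderm, stood at 8.67, 8.23 and 5.70 in CRES-1 and at 10.55, 8.02 and 7.22 in ORMES23. GATA6, a factor of primitive endoderm, stood at 9.13, 8.91 and 6.19 in CRES-1 and at 11.25, 8.17 and 6.90 in ORMES23. CRES-1 C was thus the lowest and ORMES23 A the highest of the 6 arrays for both genes, and the same held for the chemokine receptor CXCR4 and the factor FOXA2. The median difference of the list was -0.26 (log2, CRES-1 minus ORMES23 throughout) with all arrays, 0.26 without ORMES23 A and 0.36 without both arrays. FOXA1, another endoderm factor, averaged 4.98 in CRES-1 and 6.15 in ORMES23, also with ORMES23 A highest at 7.22. In bulk RNA, fewer cells of a type and less RNA per cell cannot be told apart. Without both of these arrays 114 members were called instead of 2 (64 without ORMES23 A alone, 16 without CRES-1 C alone). Values without them therefore stand beside the results they change most. Both arrays were picked for their distance from their mates, so leaving them out lowers the spread within a line and favours calls. Calls made only without them are no independent support.

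Differences were small over the members. The median absolute difference was log2 0.155, close to the median SD within a line of 0.163 in CRES-1 and 0.157 in ORMES23, and 91.4% of members differed by less than 0.5. With limma (adjusted p under 0.05 and at least 2-fold), 2 members were called, which is 0.0118% of those tested, and both were lower in CRES-1. An unadjusted p under 0.05 was reached by 2064 members (12.2%), of which 744 were higher in CRES-1 (4.39%) and 1320 lower (7.78%). Under a centring of each array on the median of its members this balance turned, to 1440 higher and 747 lower. The median difference over members went from -0.0237 to 0.0614 with it. Under quantile normalization the counts were 1108 higher and 898 lower, so the direction of the small differences is not settled. In 73 members (0.43%) all 3 CRES-1 arrays lay above all 3 ORMES23 arrays by at least 2-fold on average, and in 55 (0.324%) they lay below. Medians by chromosome ran from -0.0373 to 0.00393 over the 21 chromosomes with at least 50 genes, so no chromosome stood apart, and the 400 X-linked genes had a median of -0.0211.

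**Figure D1:**
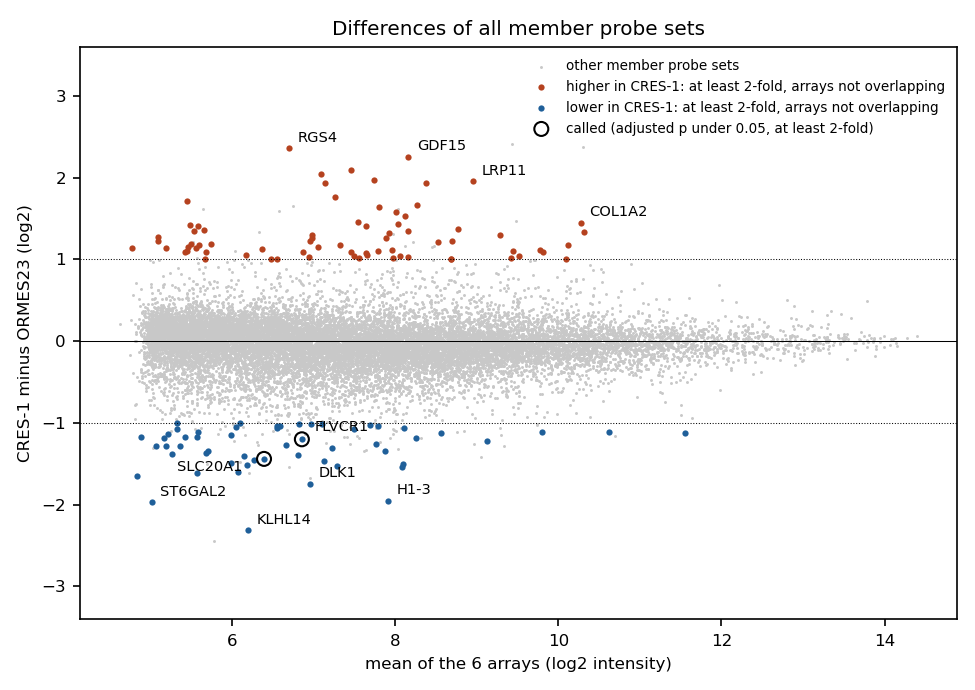
Each point is a member probe set, with its mean over the 6 arrays on the x axis (log2 intensity) and CRES-1 minus ORMES23 on the y axis (log2). Red (73 probe sets) and blue (55) points differ by at least 2-fold with no overlap between the 3 arrays of each line, dotted lines mark 2-fold, and circles mark the 2 called probe sets.

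SLC20A1 encodes a phosphate transporter of the cell surface that several gammaretroviruses also use as their receptor. A probe set for it read 5.63, 5.83 and 5.55 in CRES-1 A, B and C, against 6.80, 7.24 and 7.29 in ORMES23. It fell in CRES-1 by 1.44 on the log2 scale (SE 0.216, limma adjusted p = 0.0414), a 2.71-fold difference. CRES-1 lay below all other lines, which averaged 7.36 in RiPS1, 6.56 in CRES-3, 6.61 in RiPS2, 6.40 in RiPS3 and 5.97 in the fibroblasts. A second, much brighter probe set for SLC20A1 averaged 10.08 in CRES-1 and 10.31 in ORMES23, a difference of -0.23 with overlapping arrays (adjusted p = 0.641). The call therefore belongs to a single probe set, and which transcripts each probe set reads was not tested.

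FLVCR1 encodes an exporter of heme that was found as the receptor of a feline leukemia virus. It read 6.40, 6.62 and 5.74 in CRES-1 and 7.53, 7.40 and 7.43 in ORMES23. The fall in CRES-1 was 1.20 on the log2 scale (SE 0.186, adjusted p = 0.0414), a 2.30-fold difference on the only probe set of the gene. The other 4 pluripotent lines lay between 7.35 and 7.64, close to ORMES23, and the fibroblasts at 6.37, close to CRES-1. CRES-1 minus RiPS1 was -1.17 (adjusted p = 0.000843) and RiPS1 minus ORMES23 was -0.03 (adjusted p = 0.966); these comparisons share arrays with the main one. Of the 23 measured genes of heme and iron handling, FLVCR1 alone was called, and the list median was -0.0629. Without ORMES23 A both calls held (SLC20A1 -1.59, adjusted p = 0.00283, and FLVCR1 -1.16, adjusted p = 0.0156). Without both arrays that stand apart SLC20A1 held (-1.53, adjusted p = 0.00771) and FLVCR1 came to -0.90 (adjusted p = 0.0207), under 2-fold. No member was called without CRES-1 A, without ORMES23 B or without ORMES23 C, and 1418, 1622 and 1708 members then had an unadjusted p under 0.05.

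The genes furthest above ORMES23 in CRES-1 were not called. RGS4, a damper of G-protein signalling, read 8.17, 8.02 and 7.45 in CRES-1 and 5.75, 5.53 and 5.29 in ORMES23, a difference of 2.36 (SE 0.673, adjusted p = 0.181). GDF15, a secreted stress factor of the TGF-beta family, read 9.41, 9.08 and 9.38 in CRES-1 and 6.73, 7.18 and 7.19 in ORMES23, a difference of 2.26 (SE 0.512, adjusted p = 0.102). Every CRES-1 array of both genes exceeded every ORMES23 array by more than log2 1.

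ADH4, an alcohol dehydrogenase, came close to a call. Its 2 leading probe sets differed by 2.05 and 1.97 (adjusted p = 0.0562 and 0.0662), and both were called without ORMES23 A (2.26 and 2.28, adjusted p = 0.0107 for each). On the first of them RiPS1 (8.70) stood above the CRES-1 mean (8.12), while RiPS2 (6.60) and RiPS3 (6.44) stood near ORMES23. LRP11, a membrane protein related to the lipoprotein receptors, read 10.1, 10.2 and 9.54 in CRES-1 and 9.18, 7.47 and 7.28 in ORMES23. Its difference was 1.96 (adjusted p = 0.0622), and without ORMES23 A it was 2.56 and the gene was called (adjusted p = 4.08e-05).

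EDN1, the vasoconstrictor peptide endothelin, rested on that same array. It read 9.49, 9.49 and 9.06 in CRES-1 and 5.19, 8.40 and 8.62 in ORMES23, a difference of 1.94 that was 0.84 without ORMES23 A. PGPEP1, a peptidase, was higher in CRES-1 without overlap on all 4 of its probe sets, by 0.62 to 1.40, with an adjusted p of 0.0662 for the largest. CREM, a transcription factor that responds to cyclic AMP, was higher on all 6 of its probe sets, by 0.27 to 0.83. Its dimmest probe sets, at 4.82 and 4.78 on average in ORMES23, passed the level rule through CRES-1 alone. LOC720650, a gene without an assigned symbol, read 8.03, 7.96 and 8.36 in CRES-1 and 7.38, 5.48 and 5.67 in ORMES23 (1.94, adjusted p = 0.101), and it was called without ORMES23 A (2.54, adjusted p = 0.00315). The remaining large positive differences were those of RASGRF2 (1.77), the bone morphogenetic protein antagonist SOSTDC1 (1.71, from a dim ORMES23 mean), the collagen COL5A2 (1.67), the kinase PLK2 (1.53) and TFPI2 (1.45). For COL5A2 and PLK2 the brightest probe set differed by -0.04 and -0.17, so those genes were not higher on every reading. SOSTDC1 was called without CRES-1 C (2.17, adjusted p = 0.0341) and without both arrays (1.86, adjusted p = 0.00913).

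Among the genes furthest below ORMES23, KLHL14 read 5.11, 4.98 and 5.04 in CRES-1 and 7.95, 7.32 and 6.77 in ORMES23, a difference of -2.31 (adjusted p = 0.0981). Here ORMES23 was the line that differed from the rest, since the other 4 pluripotent lines lay between 5.26 and 5.90. Another KLHL14 probe set showed a difference of 0.01. ST6GAL2, a sialyltransferase, showed the same order: it averaged under 5 in CRES-1 and in the other 4 pluripotent lines, and 5.59 to 6.24 on the ORMES23 arrays. Counted from log2 5, ORMES23 was at least 2.00-fold above CRES-1. ST6GAL2 passed the level rule through ORMES23 alone, so it had to be lower in CRES-1.

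HSPH1, a heat shock chaperone, was lower in CRES-1 without overlap on all 4 of its probe sets, by 0.48 to 1.50. The widest of these readings came with the widest spread, since CRES-1 A, B and C stood at 7.84, 8.35 and 5.86, against 8.72 to 9.07 in ORMES23. The linker histone H1-3, of a family with near-identical copies, read 7.50, 8.28 and 5.03 in CRES-1 and 9.14, 8.54 and 8.99 in ORMES23, a difference of -1.95 that was -1.0 without CRES-1 C. CAPN6, a calpain without protease activity, averaged 5.42 in CRES-1 and 6.94 in ORMES23 (-1.52, adjusted p = 0.0728), and it was called without ORMES23 A (-1.85, adjusted p = 0.00605). AGO4, an Argonaute protein of the small RNA pathways, showed tight arrays, at 6.07, 6.22 and 6.17 in CRES-1 and 7.08, 6.90 and 6.89 in ORMES23 (-0.81, adjusted p = 0.0662). EHBP1 differed by -1.52 on 1 probe set and by 0.01 on its brightest.

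**Figure D2:**
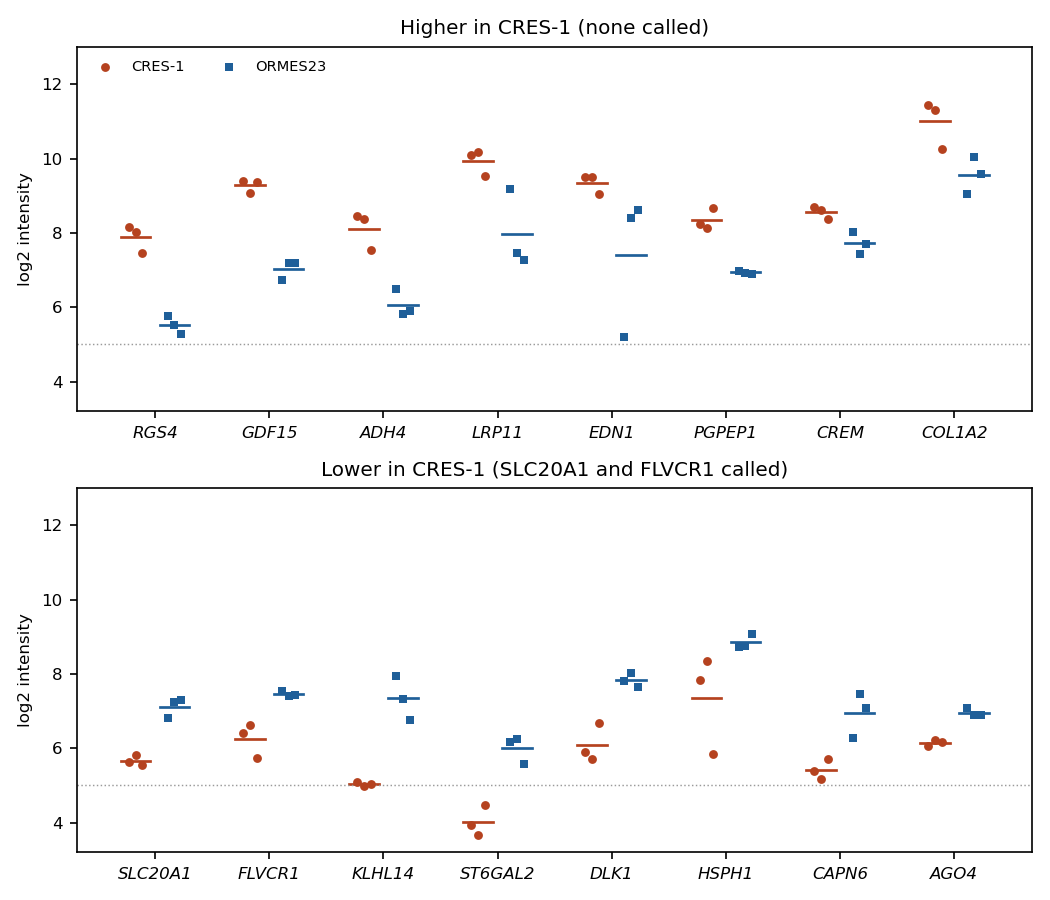
Log2 intensity on each array for 16 leading genes, CRES-1 arrays as red circles left of ORMES23 arrays as blue squares, with a bar at each mean and a dotted line at log2 5. The arrays of the lines do not overlap in any of these genes, and the ORMES23 A reading sets EDN1 (5.19) and LRP11 (9.18) apart from their mates.

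Other members came close to a call with smaller or dimmer differences. FRMD3 read 5.92, 5.70 and 6.38 in CRES-1 and 4.79, 4.995 and 4.90 in ORMES23 (adjusted p = 0.0562). Counted from log2 5, CRES-1 was at least 2.00-fold higher. FRMD3 passed the level rule through CRES-1 alone, so it had to be higher there. Its call without ORMES23 A (1.05, adjusted p = 0.0287) is therefore no support for that direction. DR1, a repressor of transcription by RNA polymerase II, differed by 0.73 and DDAH1, an enzyme that breaks down methylated arginine, by 0.71. The DDAH1 probe set also passed the level rule through CRES-1 alone. On the other side were the centromere protein CENPU (-0.90, adjusted p = 0.0562), the zinc finger gene ZNF573 (-1.02, adjusted p = 0.0562) and JTB (-0.50, adjusted p = 0.0662). Among the largest negative differences LRRC63 and MPPED2 averaged under log2 5 in CRES-1 and 5.65 and 6.37 in ORMES23, at least 1.57-fold and 2.58-fold higher there. LRRC63 passed the level rule through ORMES23 alone, so it had to be lower in CRES-1. Its call without ORMES23 A (-1.91, adjusted p = 0.0048) is therefore no support for that direction. With 1 array left out, its adjusted p ran from 0.0048 to 0.272. GSTM3, a glutathione transferase, stood at 4.88 to 5.49 in CRES-1 and at 8.05, 5.50 and 7.06 in ORMES23, so the lines were barely apart, and its difference of -1.60 was -1.01 without ORMES23 A.

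CRES-1 lay outside the range of the other pluripotent lines more often than ORMES23 did. Of the 128 members with no overlap and at least 2-fold, the CRES-1 mean lay outside the range of the other 4 pluripotent lines in 97 (75.8%, against 42% of all members) and the ORMES23 mean in 50 (39.1%, against 34.2%). Both means lay outside in 30. Among the 55 lower members CRES-1 lay outside in 43 (78.2%) and ORMES23 in 30 (54.5%). The 128 were picked by the CRES-1 and ORMES23 values, so shares above those of all members were favoured in advance. These 128 probe sets read 110 genes. Of the 69 genes with a further member probe set, 47 had all of them on the same side and 9 had all of them beyond 2-fold. In 29 probe sets the dimmer line averaged under log2 5, where a difference is no measured ratio. Of these, 11 passed the level rule through a single line, so that rule fixed their direction and their lack of overlap.

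Readings high in the fibroblasts were frequent among the higher of the same 128, counted by probe set and not by gene. The fibroblasts stood at least 2-fold above the mean of the other 4 pluripotent lines, a mean that uses neither CRES-1 nor ORMES23, for 37 of the 73 higher members (50.7%, against 12.3% of all members). They stood at least 2-fold below it for 30 of the 55 lower members (54.5%, against 18.6%). The opposite sides were also found. The fibroblasts stood at least 2-fold below that mean for 18 of the 73 higher members (24.7%, against 18.6%). They stood at least 2-fold above it for 4 of the 55 lower members (7.27%, against 12.3%). This count was made after the values of single genes had been seen. The fibroblast list gave the same side: 27 of its 32 measured genes were higher in CRES-1, 8 of them without overlap (gene background 9.6%), and the median was 0.282 beside -0.0159 over all genes. Its mean over the genes was 8.45 to 8.74 on the CRES-1 arrays and 8.15 to 8.41 on the ORMES23 arrays. The fibroblast arrays gave 10.94 to 11.04. RiPS1 (8.41 to 8.65) and RiPS2 (8.03 to 8.63) overlapped CRES-1, while CRES-3 (7.89 to 7.99) and RiPS3 (8.06 to 8.315) lay below it.

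COL1A2, a chain of type I collagen, read 11.54, 11.44 and 9.95 in CRES-1 and 9.23, 9.95 and 9.74 in ORMES23, a difference of 1.34 (SE 0.54, adjusted p = 0.333). Its level in CRES-1 was carried by A and B, and RiPS1 (11.50) was higher still. CCDC80, a matrix protein, averaged 6.03 in CRES-1, 4.89 in ORMES23 and 12.47 in the fibroblasts (1.15, adjusted p = 0.0771). This probe set was called without CRES-1 C (1.44, adjusted p = 0.0341). RiPS1 (5.78) and RiPS2 (5.92) stood near CRES-1 on it, and a second, dimmer CCDC80 probe set differed by 0.03. S100A4, a calcium-binding protein of motile cells, differed by 1.02 and FBLN5, a protein of elastic fibres, by 0.97. The defining markers FAP, LUM and PRRX1 did not reach the level rule. TWIST1 differed by -0.11 and DCN by -0.18, and whether fibroblast-like cells or mouse feeder RNA took part in these readings was not tested.

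All 14 measured HOX genes, which record position along the body axis in differentiated cells such as skin fibroblasts, were higher in CRES-1. The lines did not overlap in 7 of them, against 9.6% of all genes, the median difference was 0.33, and none was called. HOXA5 passed the level rule through CRES-1 alone, so it had to be higher there; without it 13 of 13 were higher, 6 of them without overlap, with a median of 0.308. It read 5.96, 5.63 and 5.09 in CRES-1 and 4.81, 4.65 and 4.81 in ORMES23 (0.80, adjusted p = 0.117), with 7.93 in the fibroblasts. HOXD13 averaged 5.34 in CRES-1, 4.67 in ORMES23 and 3.91 in the fibroblasts, below both lines, and was highest in RiPS2 at 5.99. HOXC6 averaged 6.29 in CRES-1, 5.75 in ORMES23 and 9.67 in the fibroblasts. The fibroblasts stood at least 2-fold above the mean of the other 4 pluripotent lines for 8 of the 14, and 2-fold below for 0. These levels are dim: the list mean was 5.69 to 5.85 on the CRES-1 arrays and 5.39 to 5.48 on the ORMES23 arrays, and the other 12 HOX genes on the array stayed under the level rule. All 14 were also higher without both arrays that stand apart (median 0.21), and 13 of 14 without CRES-1 C. HOXA5 was called without both arrays (1.06, adjusted p = 0.0176), which is no support, since the level rule fixed its direction. The RiPS2 arrays had a list mean of 5.67 to 5.86, over the same range as CRES-1. The RiPS1 arrays ran from 5.61 to 5.73, partly within that range.

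Genes that the tumour suppressor p53 activates leaned towards CRES-1; this list was chosen after GDF15 and CDKN1A had been seen, so its count is no independent evidence of a direction. Of 21 measured genes 16 were higher, 10 of them without overlap (47.6%, beside 9.6% of all genes), 5 were lower, 2 of them without overlap (9.52%, beside 11.8%), and the median was 0.353. CDKN1A, the p21 inhibitor of cyclin-dependent kinases, read 7.90, 7.87 and 8.23 in CRES-1 and 6.65, 7.07 and 7.02 in ORMES23 (1.09, SE 0.267, adjusted p = 0.12). PHLDA3, a repressor of AKT, differed by 1.03, the ribonucleotide reductase subunit RRM2B by 0.90 and the RNA-binding protein ZMAT3 by 0.83, with no overlap in any of the 3. MDM2, the ligase that degrades p53, and BAX, which drives apoptosis, overlapped between the lines (0.13 and 0.07). Without both arrays that stand apart, 13 of the 21 were higher and the median was 0.192.

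Stress and immediate early genes had a median of 0.415, with 14 of 17 higher and 5 of them without overlap (29.4%, beside 9.6% of all genes). JUNB, an AP-1 factor, averaged 8.34 in CRES-1 and 7.24 in ORMES23 (adjusted p = 0.163), and EGR2 averaged 9.94 in CRES-1 and 8.63 in ORMES23 with ORMES23 A lowest at 7.47. TRIB3, a target of the amino acid and unfolded protein responses, read 10.25 on CRES-1 C alone and 6.80 to 7.91 on the other 5 arrays. Without ORMES23 A 14 of the 17 were higher, without CRES-1 C 12, and without both arrays that stand apart 9, with a median of 0.199. Without both, 9 were higher and 4 lower without overlap (52.9% and 23.5%, beside 23.8% and 34.1% of all genes).

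Cell cycle genes lay on the other side. Of 30 measured, 24 were lower in CRES-1, 15 of them without overlap (gene background 11.8%), and the median was -0.288, although none was called (gene background 0.00953%). CDC25A, the phosphatase that opens S phase, read 8.54, 8.94 and 8.09 in CRES-1 and 9.32, 9.12 and 9.01 in ORMES23 (-0.63, adjusted p = 0.407). Its other probe sets differed by -0.33 without overlap and by 0.36 with overlapping arrays. MCM2, a subunit of the replicative helicase, averaged 10.88 in CRES-1 and 11.41 in ORMES23, and its partners MCM3, MCM4 and MCM5 lay lower by 0.34 to 0.49, also without overlap. TOP2A, the topoisomerase of dividing cells, differed by -0.59, the licensing factor CDT1 by -0.56 and cyclin CCND1 by -0.68, the last with overlapping arrays. For TOP2A the difference was -0.18 without both arrays that stand apart, and its other probe set differed by -0.19 with overlapping arrays. The mitotic genes AURKA, AURKB, CCNB1 and CCNB2 differed by -0.0528 to -0.0045. Without both arrays 22 of the 30 were lower, with a median of -0.176. The list mean was 9.435 to 9.619 on the CRES-1 arrays and 9.729 to 9.805 on the ORMES23 arrays. CRES-3 (9.566 to 9.669) and RiPS1 (9.485 to 9.684) overlapped CRES-1. RiPS2 (9.634 to 9.833) overlapped ORMES23, and RiPS3 (9.621 to 9.704) lay between the lines.

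Of 12 cell cycle inhibitors, 3 were higher in CRES-1 without overlap and 2 lower (25% and 16.7%, beside 9.6% and 11.8% of all genes). Besides CDKN1A these were CDKN2A, the locus of p16 and ARF, with 9.60, 9.36 and 8.61 in CRES-1 and 7.92, 8.37 and 8.28 in ORMES23 (1.00, adjusted p = 0.448), and the growth arrest gene GADD45B (0.89). CDKN1B, which encodes p27, and the retinoblastoma relative RBL2 differed by -0.59 and -0.60. For CDKN2A both lines stood above the other 4 pluripotent lines (5.42 to 7.74), and CRES-1 came near the fibroblasts (9.37).

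Chromatin genes lay slightly below ORMES23. Of 37 measured genes of histone methylation, 30 were lower in CRES-1, 11 of them without overlap (29.7%, beside 11.8% of all genes), with a median of -0.186. KMT2C, which methylates histone H3 at enhancers, read 6.04, 6.76 and 4.66 in CRES-1 and 6.73, 6.77 and 6.94 in ORMES23 (-0.99, adjusted p = 0.261), with CRES-1 C far below its mates. The demethylases KDM5A (-0.54) and KDM5C (-0.42) did not overlap between the lines, and the methyltransferase SUV39H2 differed by -0.55. Of 10 genes of DNA methylation, 8 were lower (median -0.205), and 3 of the 10, or 30%, were lower without overlap. The demethylase TET1 differed by -0.58 without overlap, and the maintenance cofactor UHRF1 by -0.61 with overlapping arrays. Without both arrays that stand apart these differences were -0.30 for TET1 and -0.19 for UHRF1. The smaller MBD4 difference of 0.36 ran the other way. Without both arrays that stand apart, 29 of the 37 and 8 of the 10 were lower.

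Epithelial genes were lower in 19 of 24, of which 8 did not overlap (33.3%, beside 11.8% of all genes), with a median of -0.171. Without ORMES23 A the median was -0.261 and without both arrays that stand apart -0.337, with 20 of 24 lower. DSG2, a desmosomal cadherin, read 6.88, 7.34 and 6.65 in CRES-1 and 7.93, 8.17 and 7.99 in ORMES23 (-1.07, adjusted p = 0.10), although its second probe set differed by 0.20. The trafficking GTPase RAB25 differed by -0.87, and by -1.53 without both arrays (adjusted p = 0.0228), and the keratin KRT19 by -0.62. The list mean was 8.02 to 8.25 on the CRES-1 arrays and 8.24 to 8.47 on the ORMES23 arrays, and RiPS1 overlapped CRES-1 at 7.95 to 8.06. Each of the median shifts of the fibroblast, HOX, p53, stress, cell cycle, chromatin and epithelial lists kept its sign under median centring.

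**Figure D3:**
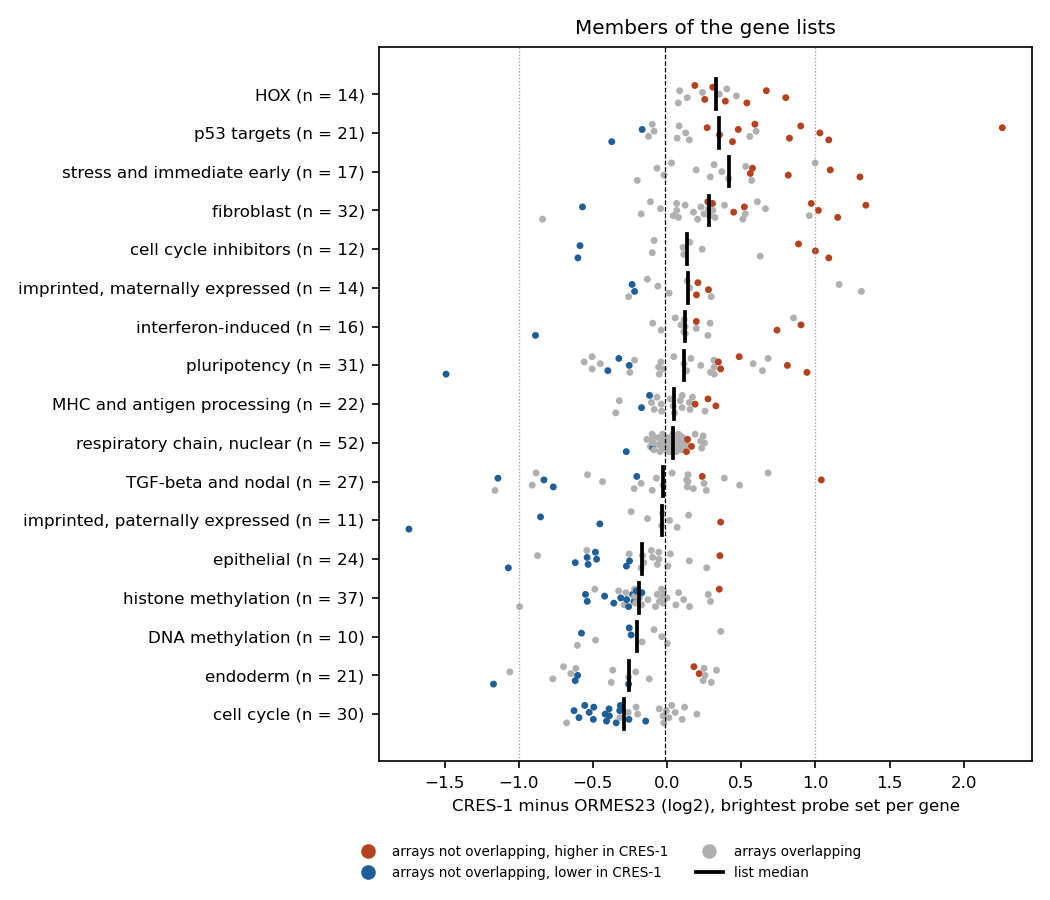
CRES-1 minus ORMES23 (log2, x axis) for the measured genes of 17 lists, each gene on its brightest probe set, red or blue where the arrays of the lines do not overlap, with a black bar at each list median. The dashed line is the median of all genes (-0.0159) and dotted lines mark 2-fold; list medians run from 0.415 for stress genes to -0.288 for cell cycle genes.

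**Figure D4:**
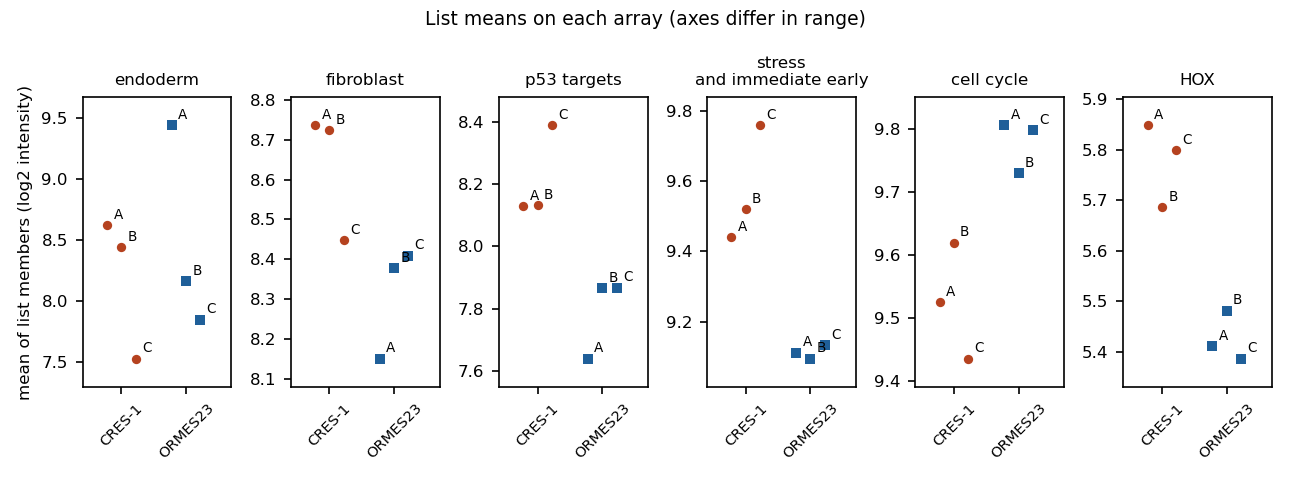
Mean log2 intensity over the members of 6 lists on each array, CRES-1 as red circles left of ORMES23 as blue squares, with the array letter beside each point. The p53, stress, cell cycle, HOX and fibroblast means do not overlap between the lines, while ORMES23 A (9.44) and CRES-1 C (7.53) span the endoderm means.

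Pluripotency genes showed no common direction, and none was called. Of 31 measured, 17 were higher in CRES-1 and 14 lower, 5 and 4 of them without overlap, which is 16.1% and 12.9% beside 9.6% and 11.8% of all genes. The median was 0.114 with all arrays, -0.0121 without ORMES23 A, -0.0253 without CRES-1 C and -0.112 without both, where 13 were higher and 18 lower. TBX3, a T-box factor of self-renewal, read 5.11, 5.04 and 5.57 in CRES-1 and 6.96, 6.92 and 6.30 in ORMES23 (-1.49, adjusted p = 0.362). The other 4 pluripotent lines lay between 4.78 and 5.78, near CRES-1. KLF4 averaged 8.38 in CRES-1 and 7.57 in ORMES23 (0.81, adjusted p = 0.364), its relative KLF5 7.78 in CRES-1 and 6.84 in ORMES23, and the morphogen NODAL 8.64 in CRES-1 and 7.96 in ORMES23. NODAL was called without both arrays that stand apart (1.66, adjusted p = 0.0207). MYC differed by 0.32, NANOG by -0.51 and SOX2 by -0.06, all with overlapping arrays, and POU5F1 by 0.49 without overlap (adjusted p = 0.472).

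Most imprinted genes differed little between the lines, and DLK1 differed most. The 11 paternally expressed genes had a median of -0.0366. Of these, 1 was higher and 3 were lower without overlap (9.09% and 27.3%, beside 9.6% and 11.8% of all genes). Their list mean was 8.07 to 8.28 on the CRES-1 arrays and 8.41 to 8.46 on the ORMES23 arrays. DLK1, a paternally expressed ligand related to those of Notch, read 5.89, 5.70 and 6.67 in CRES-1 and 7.82, 8.03 and 7.65 in ORMES23 (-1.74, SE 0.446, adjusted p = 0.135). The other 4 pluripotent lines lay between 7.35 and 7.76, so CRES-1 was the lowest of the 6. PEG3, a paternally expressed zinc finger gene, averaged 6.88 in CRES-1 and 7.73 in ORMES23 (-0.85), but CRES-1 C at 5.93 made much of it, and without both arrays the difference was -0.24. In RiPS1 PEG3 stood at 4.09, far below either (CRES-1 minus RiPS1 2.80, adjusted p = 2.96e-05). BLCAP differed by -0.45 and IGF2, the fetal growth factor, by 0.36, both without overlap. SNRPN, MEST, NDN, SGCE, PLAGL1 and MAGEL2 all differed by less than 0.15 in size, and IMPACT by -0.24.

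Of 14 maternally expressed genes, PHLDA2, a brake on placental growth, and TFPI2, a protease inhibitor, differed most. The list median was 0.144, with 3 genes higher and 2 lower without overlap (21.4% and 14.3%, beside 9.6% and 11.8% of all genes). The list mean was 7.98 to 8.09 on the CRES-1 arrays and 7.62 to 7.95 on the ORMES23 arrays. PHLDA2 read 8.50, 8.47 and 10.19 in CRES-1 and 6.85, 8.30 and 8.53 in ORMES23, so CRES-1 C was highest and ORMES23 A lowest, and the arrays overlapped. TFPI2 read 9.04, 8.84 and 8.03 in CRES-1 and 6.15, 7.75 and 8.07 in ORMES23 on its brightest probe set. H19 differed by -0.26, IGF2R by 0.01 and UBE3A by -0.22.

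**Figure D5:**
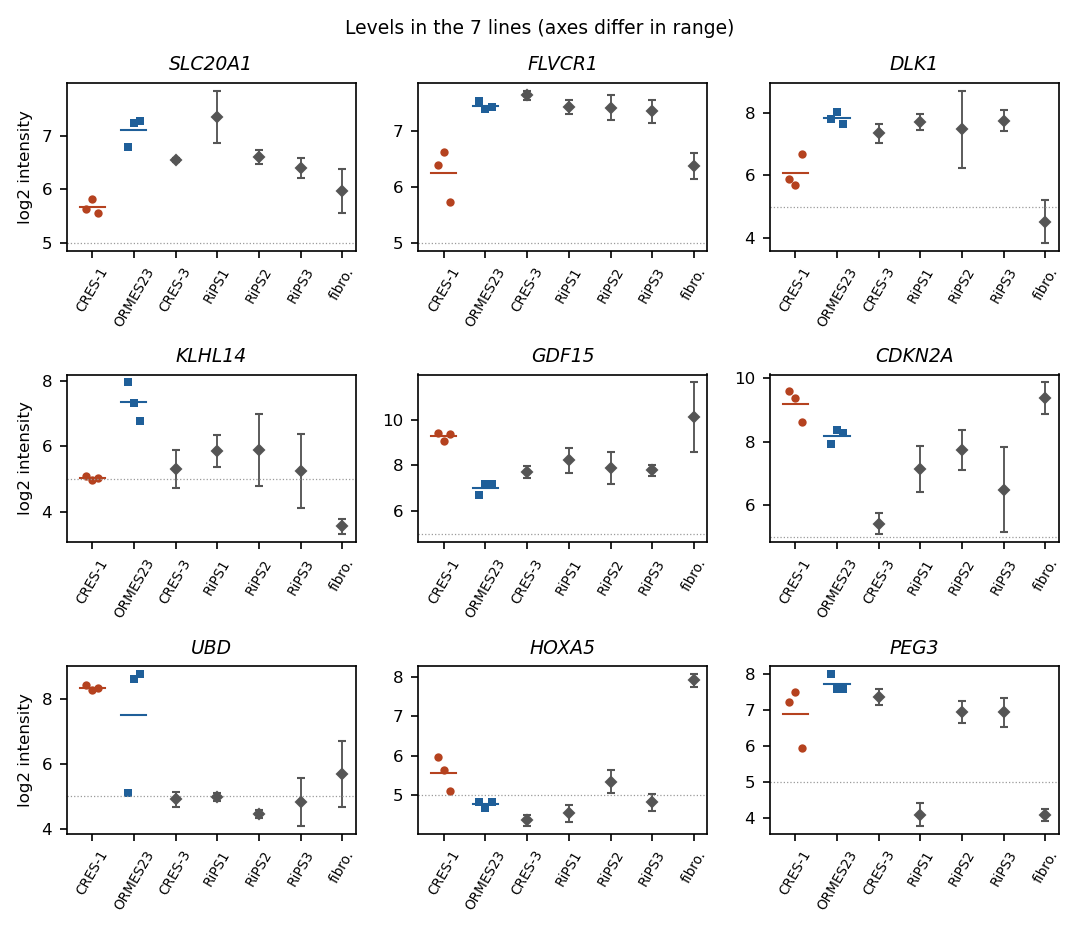
Log2 intensity of 9 genes in the 7 lines, with CRES-1 (red circles) and ORMES23 (blue squares) by array and the other lines as means with SD over 3 arrays; the dotted line is log2 5. FLVCR1 and DLK1 are lowest in CRES-1 among the pluripotent lines, KLHL14 is highest in ORMES23, and UBD is above log2 8 in CRES-1 and on 2 of 3 ORMES23 arrays.

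Signalling genes gave single differences within lists that did not shift. In the TGF-beta and nodal list (27 genes, median -0.0256) SMAD3, which carries activin and TGF-beta signals, read 8.45, 8.47 and 8.83 in CRES-1 and 7.94, 7.26 and 7.43 in ORMES23 (1.04, adjusted p = 0.179), and all 3 of its probe sets were higher without overlap. SMAD6, an inhibitor of the bone morphogenetic protein branch, averaged 5.42 in CRES-1 and 6.56 in ORMES23 (-1.14). The targets of that branch ID1 (-1.16) and ID3 (-0.91) and the decoy receptor BAMBI (-0.88) averaged lower in CRES-1, with overlapping arrays, ORMES23 A being the lowest ORMES23 array for each. Without ORMES23 A BAMBI was called (-1.41, adjusted p = 0.00102), as it was without both arrays that stand apart (-1.44, adjusted p = 0.00295). In the FGF list (20 genes, median 0.078) FGFR3 averaged 7.66 in CRES-1 and 8.84 in ORMES23 (-1.19, adjusted p = 0.251), while its other probe set differed by 0.11. The 32 WNT genes had a median of -0.108, with 1 gene higher and 4 lower without overlap (3.12% and 12.5%, near the 9.6% and 11.8% of all genes).

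Of 16 measured interferon-induced genes, 13 were higher in CRES-1 and 3 lower, 3 and 1 of them without overlap (18.8% and 6.25%, beside 9.6% and 11.8% of all genes). Without both arrays that stand apart 9 were higher and 7 lower. MX1, an antiviral GTPase, read 7.38, 7.40 and 8.16 in CRES-1 and 8.33, 8.63 and 8.65 in ORMES23 (-0.89, adjusted p = 0.0758), and it was called without CRES-1 C (-1.14) and without both arrays (-1.24, adjusted p = 0.00168). ISG15, a ubiquitin-like modifier, averaged 8.82 in CRES-1 and 8.08 in ORMES23 (0.74, adjusted p = 0.185). IFIT3, an antiviral RNA-binding protein, differed by 0.90. UBD, another ubiquitin-like protein, was at 8.43, 8.30 and 8.35 in CRES-1 and at 5.11, 8.62 and 8.79 in ORMES23, against 4.45 to 4.97 in the other 4 pluripotent lines. A high UBD level was thus shared by all of CRES-1 and by 2 of 3 ORMES23 arrays. The list median was 0.122.

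The 22 measured genes of the major histocompatibility complex and antigen processing, which differ between animals, had a median of 0.0458. MAMU-DOA differed by 0.33, B2M, the common light chain of class I molecules, by 0.19 and MAMU-B by -0.17, each without overlap; probe sets of these related genes can cross-hybridize. Respiratory chain subunits encoded in the nucleus were nearly the same in both lines: the 52 measured had a median of 0.0384, none reached an unadjusted p under 0.05 (gene background 11.4%), and none was called by limma. No named probe set of a mitochondrially encoded gene was measured, so the egg's own genome was not compared. The 11 genes of mitochondrial DNA maintenance had a median of -0.107.

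No gene of the other lists was called. Medians were 0.00911 for 17 mesoderm genes, -0.0567 for 14 trophoblast genes, 0.107 for 11 neural ectoderm genes and 0.104 for 7 germline genes. The mesoderm and trophoblast medians were -0.233 and -0.303 without both arrays that stand apart, where 11 of the 14 trophoblast genes were lower, and MSX2 and TFAP2A of these lists were then called. GATA3, a trophoblast factor, read 7.18, 6.99 and 7.77 in CRES-1 and 8.48, 9.18 and 8.90 in ORMES23 (-1.54, adjusted p = 0.376), and did not overlap on either of its probe sets. MSX2, a mesoderm factor, and KIT, a receptor of germ cells, averaged 1 or more lower in CRES-1 (-1.10 and -1.26), with overlapping arrays. The medians were -0.0543 for 21 glycolysis genes, -0.0774 for 16 telomere genes and 0.0473 for 22 apoptosis genes. The medians of the trophoblast, glycolysis, telomere, heme and iron, TGF-beta, and paternally expressed lists changed sign under median centring.

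RiPS1, an induced line also labelled male and labelled as fetal, gives a scale for these counts. With the same fit and members, CRES-1 against RiPS1 gave 322 calls (1.9%) and RiPS1 against ORMES23 gave 361 (2.13%), beside 2 for CRES-1 against ORMES23; all 3 comparisons share arrays, and the counts were not tested against each other. HOXD1 is an example, at 6.45 in CRES-1, 5.98 in ORMES23 and 8.92 in RiPS1. KDM5C differed between CRES-1 and RiPS1 by -0.76 (adjusted p = 0.00224) and between RiPS1 and ORMES23 by 0.34 (adjusted p = 0.158).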

How the data were processed

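Values were log2 intensities per probe set from Affymetrix rhesus arrays, which the authors summarized and normalized by RMA, the robust multi-array average, per the submitters' processing notes; the RMA version is not given in the sources used here. RNA was purified with Trizol and spin columns and labelled by the one-cycle protocol, per the labels' protocols, which call the arrays of a line biological replicates. Gene symbols came from the platform annotation: 24969 probe sets carried 1 symbol, 361 several and 27535 none. Of the members, 16754 matched a RefSeq gene ID, used for chromosomes.

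All 21 arrays entered a fit in limma 3.58.1 (R 4.3.3) that gave each of the 7 lines its own mean and left 14 residual degrees of freedom, with empirical Bayes moderation, two-sided p and Benjamini-Hochberg adjustment over the 16963 members. A member was called at an adjusted p under 0.05 and at least 2-fold, and is said to have fallen or risen only then. Errors are the SE of that fit or the SD over the 3 arrays of a line. Array number limits the precision. No overlap means that all arrays of CRES-1 lay on one side of all arrays of ORMES23. Lists were read on the brightest probe set of each gene and described by counts and medians, with no test.

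Values under log2 5 lie near background. At the limit, the third highest array of NDRG2 read 5.00106 and that of LOC699759 4.9999; 61 members passed through CRES-1 alone and 37 through ORMES23 alone. Named genes were the called ones, the 12 largest non-overlapping differences and the 8 smallest p in each direction, up to 5 genes of a list by size of difference, the reprogramming factors, and the imprinted, HOX, histocompatibility and Y-linked genes. Other genes (MSX2, TFAP2A, KIT, MCM3, MCM4, MCM5, MDM2, BAX, TWIST1, DCN, CDKN1B and the mitotic genes) were picked with values in view. The members and lists were chosen with earlier results of these data known. On simulated data 200 of 16963 probe sets were changed. There 77% of shifts of log2 1 and 96.5% of log2 2 were recovered for this comparison, with 4.62% false calls. On the real arrays RGS4 (2.36), GDF15 (2.26) and ADH4 (2.05) were not called. The simulated rates therefore do not tell what share of real 2-fold differences was found.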

Additional observations from a re-analysis of the deposited data

How the results depend on the processing

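Calls, 2 in all, changed with nearly every setting. There were 3 with the 6 arrays alone (GDF15 on its 2 probe sets and VMP1), 3 with the 18 arrays of the pluripotent lines, 0 without the level filter (2701 at an unadjusted p under 0.05), 2 with a filter on 21 arrays, at log2 6, with a variance trend or by adjusted p alone, 0 on the brightest probe set per gene, 1 on the mean of probe sets, 13 after median centring, 6 after quantile normalization and 275 with array weights. Leaving out an array gave 0 to 64 calls, the most without ORMES23 A; without both that array and CRES-1 C there were 114, an alternative chosen after seeing the data, as was leaving out members that passed through a single line (2 calls). SLC20A1 was called in 13 of 20 alternatives and FLVCR1 in 12. Same-letter arrays deviated together at r of 0.184, -0.257 and 0.265, so the letters pair nothing; a replicate block gave 12 calls. The cause of these changes was not tested.

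Signs turned for few of the named genes. On the brightest probe set per gene the differences were -0.0439 for COL5A2, -0.168 for PLK2 and 0.00558 for EHBP1, and median centring gave 0.0279 for SOX2. Array weights gave 0.697 for CXCR4, 0.706 for GATA6, 0.236 for SOX17, 0.553 for FOXA2 and -0.101 for UBD. Without both arrays that stand apart the differences were 1.11 for CXCR4, 1.48 for GATA6, 0.827 for SOX17, 0.991 for FOXA2, -0.339 for UBD, -0.229 for TRIB3 and -0.0155 for MYC. Leaving out 1 array gave -0.213 to 0.1 for SOX2, -1.36 to 0.348 for CXCR4, -1.63 to 0.539 for GATA6, -1.26 to 0.381 for FOXA2 and -0.345 to 1.49 for UBD.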

Other observations

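Probe sets without a single gene symbol were no members. Of 10645 that reached the same level, 31 were called by the same limma fit, beside 2 of the 16963 members. Of the 31, 9 were higher and 22 lower in CRES-1. An unadjusted p under 0.05 was reached by 1540 of the 10645 (14.5%, beside 12.2% of members). Probe set MmugDNA.11650.1.S1_at read 7.31, 7.20 and 7.38 in CRES-1 and 6.03, 5.60 and 6.04 in ORMES23 (log2 1.41, adjusted p = 0.00513).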
